A study of Homo sapiens with 18 samples.

Results

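ORM1, PGC, CCDC141, SLC26A3 and SNAI2 are 5 genes that were almost silent in androgen-deprived LNCaP prostate cancer cells and were read at clear levels after the synthetic androgen R1881 was added. They were picked, from 34912 gene rows, for estimated counts near 0 in control vehicle libraries together with a large rise with R1881, so their levels in the control siRNA libraries are given as a description without a test. LNCaP is an established human prostate cancer cell line that grows in response to androgen. Cells were held for 48 h in medium with 5% charcoal-stripped serum, which is depleted of steroids, and then received 10 nM R1881 or its vehicle, 96% ethanol, for 24 h. The groups were NFYA siRNA with R1881 (3 libraries), KLF5 siRNA with R1881 (3), control siRNA with R1881 (3), NFYA siRNA with vehicle (3), KLF5 siRNA with vehicle (2) and control siRNA with vehicle (3), and every library came from transfected cells of the same line. Each siRNA was a pool, and the knockdowns were partial. A further KLF5 siRNA vehicle sample was not analysed here.

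R1881 is a synthetic steroid, and androgens change the transcription of many genes in luminal cells of the prostate. NFYA is the regulatory subunit of NF-Y, a factor that binds CCAAT boxes in promoters, and KLF5 is a zinc-finger factor that binds GC-rich and CACCC sequences. The 5 genes have unrelated products. ORM1 encodes alpha-1-acid glycoprotein, a carrier protein that the liver secretes into plasma in the acute-phase response. PGC encodes progastricsin, the precursor of an aspartic protease of gastric juice that is also known from seminal fluid. CCDC141 encodes a coiled-coil protein that binds myosin II and acts at the centrosome of migrating neurons. SLC26A3 encodes the chloride and bicarbonate exchanger of the colon surface, and SNAI2 encodes Slug, a zinc-finger repressor known from epithelial-mesenchymal transition.

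Library totals ran from 4416653 to 6872421 estimated counts. CPM are counts per 1000000 of a library total that was first adjusted by TMM, a scaling to the typical gene. With R1881, NFYA averaged 56.4 ± 2.59 CPM with NFYA siRNA and 86.9 ± 2.61 CPM with control siRNA (SD, n = 3 each), and KLF5 averaged 12.8 ± 2.07 CPM with KLF5 siRNA and 28.4 ± 3.34 CPM with control siRNA (SD, n = 3 each). Both differences passed edgeR's quasi-likelihood test with Benjamini-Hochberg adjustment, with log2 changes of -0.62 (adjusted p = 2.28e-07) and -1.16 (adjusted p = 0.000130). By deposited TPM, which also divide by transcript length, NFYA averaged 26.1 ± 2.26 with NFYA siRNA and 43.1 ± 2.61 with control siRNA. KLF5 averaged 17.4 ± 19.6 TPM with KLF5 siRNA (5.44 to 40.1) and 13.1 ± 1.24 TPM with control siRNA, so these means do not show its fall. Without R1881, KLF5 averaged 4.16 CPM with control siRNA, below its level with KLF5 siRNA and R1881. The prostate luminal markers KLK3, HOXB13, FOLH1, KRT8, KRT18 and ACPP were each detected in every group. Nothing in the labels says that libraries of a group came from separate cultures, so p-values measure the spread between these libraries, which may be technical. In bulk RNA, fewer cells that express a gene and less RNA in each cell cannot be told apart.

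The DNA just before the transcription start is shown for ORM1, PGC and SLC26A3, because one siRNA was aimed at a factor that binds CCAAT and the other at one that binds CACCC. Windows from the RefSeq promoter table (GRCh38.p14) were used for 4 of the genes. Each window begins 250 bases before the RefSeq start and ends where an annotated GENCODE v29 transcript or the RefSeq transcript begins, and sequences are 5′ to 3′ on the strand of the gene. Capitals mark the CACCC box, the CCAAT box and the TATA box (TATAAA).
ORM1, chr9:114322848-114323055, plus strand: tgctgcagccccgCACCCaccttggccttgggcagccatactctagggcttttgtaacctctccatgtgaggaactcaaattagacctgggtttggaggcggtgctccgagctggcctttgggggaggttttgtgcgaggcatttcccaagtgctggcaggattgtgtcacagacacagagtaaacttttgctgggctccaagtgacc
PGC, chr6:41747402-41747647, minus strand: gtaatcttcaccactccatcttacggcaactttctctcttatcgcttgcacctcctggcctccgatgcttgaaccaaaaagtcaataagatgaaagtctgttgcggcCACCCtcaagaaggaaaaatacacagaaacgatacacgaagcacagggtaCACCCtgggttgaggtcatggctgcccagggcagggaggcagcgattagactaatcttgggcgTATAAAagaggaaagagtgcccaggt
SLC26A3, chr7:107803226-107803473, minus strand: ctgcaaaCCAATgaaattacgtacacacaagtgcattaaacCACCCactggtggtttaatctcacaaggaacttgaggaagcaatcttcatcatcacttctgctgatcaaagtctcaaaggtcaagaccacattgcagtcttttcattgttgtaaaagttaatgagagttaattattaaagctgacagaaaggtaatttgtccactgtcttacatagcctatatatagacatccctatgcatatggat

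Searched on both strands, CACCC occurred once in the window of ORM1 (208 bases), at 2 places in that of PGC (246 bases) and once in that of SLC26A3 (248 bases). CCAAT occurred in the SLC26A3 window alone, at position -243 relative to the RefSeq start, and TATAAA in the PGC window alone, at position -30. The window of CCDC141 (250 bases) held none of the motifs searched. It lies before the RefSeq start at position 179050137 of chromosome 2. CCDC141-201, the transcript with the largest share of CCDC141 counts, begins elsewhere, at position 178884951, and the bases before that start were not searched. Neither the steroid response half-site AGAACA nor the full palindromic androgen response element was found in any of the 4 windows. Of 35116 promoters in the table, over the 250 bases before the start, 54.7% held CACCC, 32% held CCAAT, 12.4% held AGAACA, 10.7% held TATAAA and 0.00285% held the full element. A match is a run of letters and not a binding site, and the missing letters say nothing of the factors.

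Without androgen the 5 genes gave almost no reads under any siRNA. Over the 8 vehicle libraries together, ORM1 had 1 estimated count, PGC 4, CCDC141 6 and SNAI2 7. SLC26A3 had 0 counts in all 8 vehicle libraries, which allows a level of up to 0.0718 CPM (exact Poisson upper bound at 95%). No vehicle library held more than 2 rounded counts of any of them, and CCDC141 and SNAI2 reached that number. The control vehicle libraries chose the genes, but the 5 vehicle libraries with NFYA or KLF5 siRNA did not. In NFYA siRNA vehicle libraries ORM1 had 0 counts, PGC 2, CCDC141 2, SLC26A3 0 and SNAI2 3. In KLF5 siRNA vehicle libraries the counts were 1 for ORM1, 1 for PGC, 2 for CCDC141, 0 for SLC26A3 and 3 for SNAI2.

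With R1881 every one of the 9 libraries held between 21 and 196 counts of each gene. CPM compare a gene between libraries, and TPM, which also divide by transcript length, serve to order the genes. With NFYA siRNA and R1881, PGC (31.9 ± 1.68 TPM) stood above ORM1 (29.6 ± 2.81), followed by CCDC141 (15.0 ± 2.10), SNAI2 (12.7 ± 0.184) and SLC26A3 (4.10 ± 1.25; SD, n = 3 libraries in each group). With KLF5 siRNA and R1881 the order was ORM1 (58.4 ± 5.83 TPM), PGC (30.4 ± 0.596), CCDC141 (17.3 ± 1.78), SNAI2 (15.9 ± 1.52) and SLC26A3 (3.37 ± 0.964). With control siRNA and R1881 it was the same, at 56.4 ± 4.79, 34.9 ± 4.11, 16.4 ± 1.61, 14.4 ± 1.24 and 3.11 ± 0.322 TPM. The libraries of PGC and ORM1 overlapped with NFYA siRNA, as those of CCDC141 and SNAI2 did in each R1881 group, so these neighbours are not separated beyond the spread of the libraries.

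**Figure D1:**
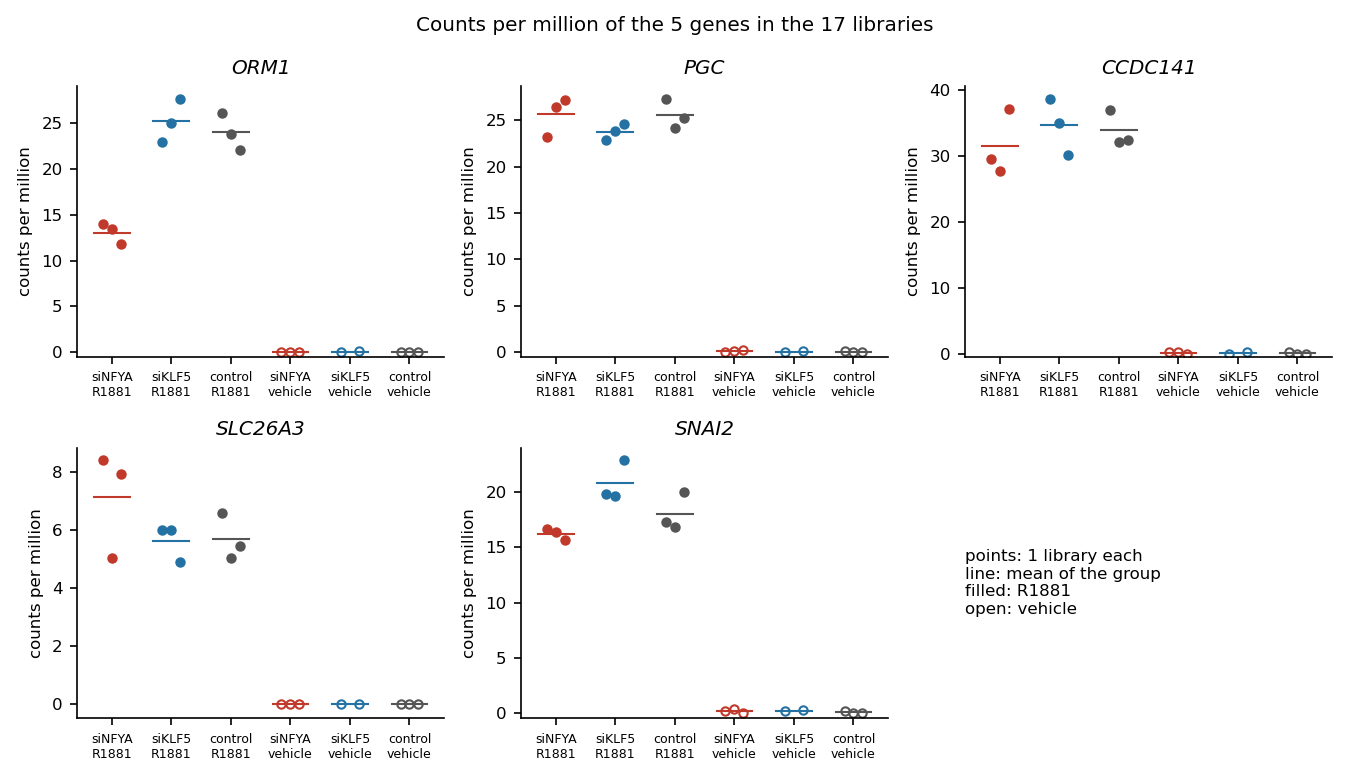
CPM (vertical axis) of ORM1, PGC, CCDC141, SLC26A3 and SNAI2 in each of 17 libraries, grouped by siRNA and treatment; points are libraries and lines are group means. R1881 libraries (filled) lie far above vehicle libraries (open) for every gene, and the NFYA siRNA libraries of ORM1 lie at 11.8 to 14.0 CPM, below all other R1881 libraries.

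The rise with R1881 was present in both knockdown arms, which the choice of genes did not use. All 5 genes passed the test upward with NFYA siRNA (largest adjusted p = 1.14e-09) and with KLF5 siRNA (largest adjusted p = 1.45e-08; edgeR quasi-likelihood test, Benjamini-Hochberg over 12922 genes). Among all genes tested, 30.6% passed upward with NFYA siRNA and 30.1% with KLF5 siRNA. Scaling by library totals in place of TMM moved the median gene by -0.23 on the log2 scale in both arms, and the split of 3949 higher and 3891 lower genes with NFYA siRNA became 2434 and 6246, and that of 3894 and 3637 with KLF5 siRNA became 2338 and 5965. Changes with R1881 are therefore relative to the typical gene, and all 5 genes passed under either scaling. The genes reached the test because their R1881 libraries carried them past the filter on low counts, so the number that passed is no support of its own. Fitted log2 changes from a group near 0 depend on the prior count, and the sizes below therefore come from summed counts, with 95% counting intervals that cover counting error alone or as lower bounds against 3 counts over the vehicle group.

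The ORM1 sum was 202 counts in NFYA siRNA R1881 libraries and 0 in NFYA siRNA vehicle libraries, at least 70.3-fold higher. With KLF5 siRNA it was 366 counts with R1881 and 1 with vehicle, a ratio of 371 (interval 66.1 to 14677). PGC was 206-fold higher with R1881 than with vehicle under NFYA siRNA (interval 56.7 to 1709) and 350-fold higher under KLF5 siRNA (interval 62.5 to 13877). For CCDC141 the ratios were 251 under NFYA siRNA (69.2 to 2080) and 258 under KLF5 siRNA (71.0 to 2134). SLC26A3 was at least 37.9-fold higher with R1881 under NFYA siRNA and at least 28.0-fold higher under KLF5 siRNA. SNAI2, whose vehicle counts were the highest of the 5, had the lowest ratios with an interval, 87.4 under NFYA siRNA (29.6 to 427) and 102 under KLF5 siRNA (34.6 to 497). The intervals of the 2 arms overlap for each gene that has them. The vehicle libraries decide these sizes. Without KLF5 siRNA vehicle replicate 3, the only KLF5 siRNA vehicle library with a count of ORM1, PGC or CCDC141, the changes under KLF5 siRNA are at least 62.8-fold, 59.4-fold and 87.3-fold, and without replicate 2 the ratios are 182, 172 and 127. Without 1 library at a time, the ratios under NFYA siRNA ran from 135 (without vehicle replicate 1) to 292 for PGC, from 178 to 328 for CCDC141 and from 61.9 to 167 (without vehicle replicate 2) for SNAI2. SNAI2 under KLF5 siRNA ran from 75.2 to 155 (without vehicle replicate 3). The lower bounds ran from 44.9 to 73.3 for ORM1 under NFYA siRNA, and for SLC26A3 from 24.2 to 44.0 under NFYA siRNA and from 13.8 to 29.6 under KLF5 siRNA. The lowest bounds came without a vehicle library, by construction, since the same 3 counts are then set over fewer libraries.

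The difference of the R1881 response between the arms, NFYA siRNA minus KLF5 siRNA, passed for none of the 5 genes (adjusted p between 0.797 and 1.00; edgeR quasi-likelihood test), where 0.666% of all genes passed. With 0 to 3 vehicle counts an arm, this difference rests on very few reads, and it does not show that the arms respond alike. The level reached with R1881 does not depend on those reads, and the rest of the comparison between the knockdowns is made on it.

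With R1881, ORM1 was lower with NFYA siRNA than with KLF5 siRNA, and the other 4 genes did not pass the test. ORM1 had 14.0, 13.4 and 11.8 CPM with NFYA siRNA, 22.9, 25 and 27.6 CPM with KLF5 siRNA, and 26.0, 23.8 and 22.1 CPM with control siRNA. The 3 NFYA siRNA libraries were the lowest 3 of the 9, with no overlap, and the KLF5 siRNA and control siRNA libraries lay among each other. Among all genes tested, NFYA siRNA libraries lay wholly below KLF5 siRNA libraries for 11.8%. No such share was counted against control siRNA. The log2 difference, NFYA siRNA minus KLF5 siRNA, was -0.94 with a standard error of 0.13, or 0.522 times the KLF5 siRNA level (95% interval 0.437 to 0.626), at adjusted p = 0.000178 (edgeR quasi-likelihood test, Benjamini-Hochberg). In this comparison 3.82% of all genes passed, 2.33% lower and 1.49% higher with NFYA siRNA. The control siRNA libraries helped to choose ORM1, and its log2 difference from them is a description, -0.87 ± 0.13 with NFYA siRNA and 0.07 ± 0.12 with KLF5 siRNA (standard errors), 2 values that share the same control libraries. On deposited TPM values the ORM1 difference kept its size, -0.97 on the log2(TPM + 0.5) scale, but no longer passed (limma, adjusted p = 0.137).

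PGC had 23.2, 26.5 and 27.2 CPM with NFYA siRNA and R1881, 22.9, 23.8 and 24.6 CPM with KLF5 siRNA and 27.3, 24.1 and 25.3 CPM with control siRNA. All 3 groups overlapped. The level with NFYA siRNA was 1.08 times that with KLF5 siRNA (95% interval 0.925 to 1.26; edgeR adjusted p = 0.693). The interval of PGC does not reach the ratio of ORM1, nor do those of CCDC141, SLC26A3 and SNAI2 given below. Differences between the genes were not tested.

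CCDC141 had 29.5, 27.7 and 37.1 CPM with NFYA siRNA and R1881, 38.7, 35.1 and 30.2 CPM with KLF5 siRNA and 37.0, 32.2 and 32.5 CPM with control siRNA. The groups overlapped, and the NFYA siRNA group held both the lowest library and one of the highest. Its ratio, NFYA siRNA over KLF5 siRNA, was 0.899 (95% interval 0.759 to 1.06; edgeR adjusted p = 0.585). SLC26A3, the gene with the fewest reads, had 8.44, 5.04 and 7.93 CPM with NFYA siRNA and R1881, 6.02, 6.00 and 4.91 CPM with KLF5 siRNA and 6.60, 5.05 and 5.45 CPM with control siRNA. The highest 2 of the 9 libraries were NFYA siRNA libraries, but the third lay at the low end. Its ratio of 1.25 had the widest interval of the 5 (0.882 to 1.78; edgeR adjusted p = 0.582).

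SNAI2 had 16.7, 16.4 and 15.7 CPM with NFYA siRNA and R1881, 19.8, 19.7 and 22.9 CPM with KLF5 siRNA and 17.3, 16.8 and 20.04 CPM with control siRNA. The NFYA siRNA libraries were the lowest 3 of the 9, close to each other, and lay just under the lowest control siRNA library. The ratio of NFYA siRNA over KLF5 siRNA was 0.784 (95% interval 0.654 to 0.940), with an unadjusted p of 0.0145, but the difference did not pass the adjustment over all genes (edgeR adjusted p = 0.166). Libraries of the NFYA siRNA group thus lay wholly below those of the KLF5 siRNA group for 2 of the 5 genes, ORM1 and SNAI2. Among all genes tested the libraries of these groups did not overlap for 21.5%, and the NFYA siRNA libraries were the lower ones for 11.8%. No such share was counted for NFYA siRNA against control siRNA. The log2 differences from control siRNA, as a description, were -0.15 ± 0.13 with NFYA siRNA and 0.20 ± 0.13 with KLF5 siRNA for SNAI2 (standard errors). For PGC, CCDC141 and SLC26A3 they were 0.00, -0.12 and 0.32 with NFYA siRNA and -0.11, 0.04 and -0.01 with KLF5 siRNA, against the same control libraries.

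**Figure D2:**
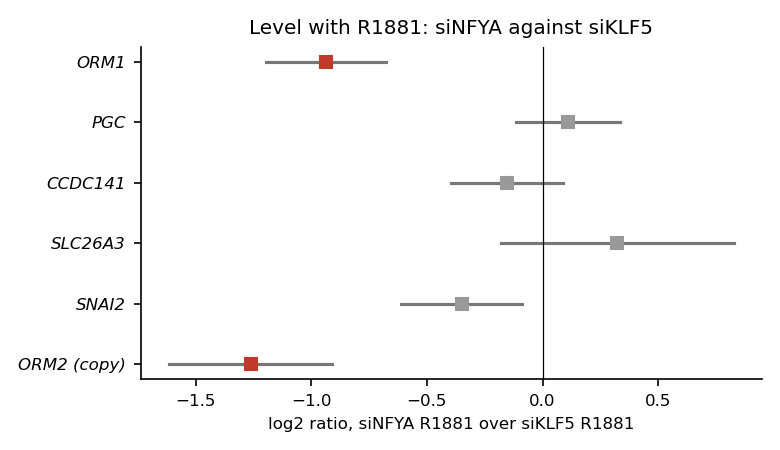
Log2 ratio of the level with NFYA siRNA and R1881 over that with KLF5 siRNA and R1881 (horizontal axis) for the 5 genes and for ORM2; squares are estimates from 3 libraries a group, lines are 95% intervals, and red marks an adjusted p under 0.05. ORM1 and ORM2 lie below 0 at -0.94 and -1.26, and the intervals of PGC, CCDC141 and SLC26A3 include 0.

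ORM1 has a near-identical copy, ORM2, which also encodes an alpha-1-acid glycoprotein and begins 3394 bases beyond the end of ORM1 on chromosome 9, on the same strand. Over 760 aligned bases of the main transcripts 95.9% were identical, and 433 of the 772 runs of 31 bases in the ORM1 transcript also occur in that of ORM2. Reads in shared runs are divided between the copies by estimation, so the value of either copy alone is uncertain. ORM2 had 7.50, 7.85 and 7.10 CPM with NFYA siRNA and R1881, 16.6, 17.5 and 20.1 CPM with KLF5 siRNA and 14.7, 10.4 and 11.2 CPM with control siRNA. Its NFYA siRNA libraries were the lowest and its KLF5 siRNA libraries the highest, with no overlap between any 2 of the groups. NFYA siRNA libraries lay wholly below KLF5 siRNA libraries for 11.8% of all genes tested. The share of genes with all 3 groups apart was not counted, so that separation is a description. The log2 difference of NFYA siRNA from KLF5 siRNA was -1.26 with a standard error of 0.18 (edgeR adjusted p = 0.000114), and on the log2(TPM + 0.5) scale it was -1.28 and no longer passed (limma, adjusted p = 0.0903).

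ORM2 shares reads with ORM1, which the control siRNA libraries helped to choose, so its log2 differences from control siRNA are also a description, -0.69 ± 0.19 with NFYA siRNA and 0.57 ± 0.17 with KLF5 siRNA (standard errors). The sum of both copies does not depend on how shared reads were divided. It was 20.5 ± 1.45 CPM with NFYA siRNA and R1881, 43.3 ± 4.16 CPM with KLF5 siRNA and 36.1 ± 4.06 CPM with control siRNA (SD, n = 3 each). For the sum the log2 difference of NFYA siRNA from KLF5 siRNA was -1.07 with a standard error of 0.11 (edgeR adjusted p = 1.60e-06). ORM1 made up 63.5 ± 1.40% of the pair with NFYA siRNA, 58.2 ± 0.474% with KLF5 siRNA and 66.6 ± 2.83% with control siRNA.

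**Figure D3:**
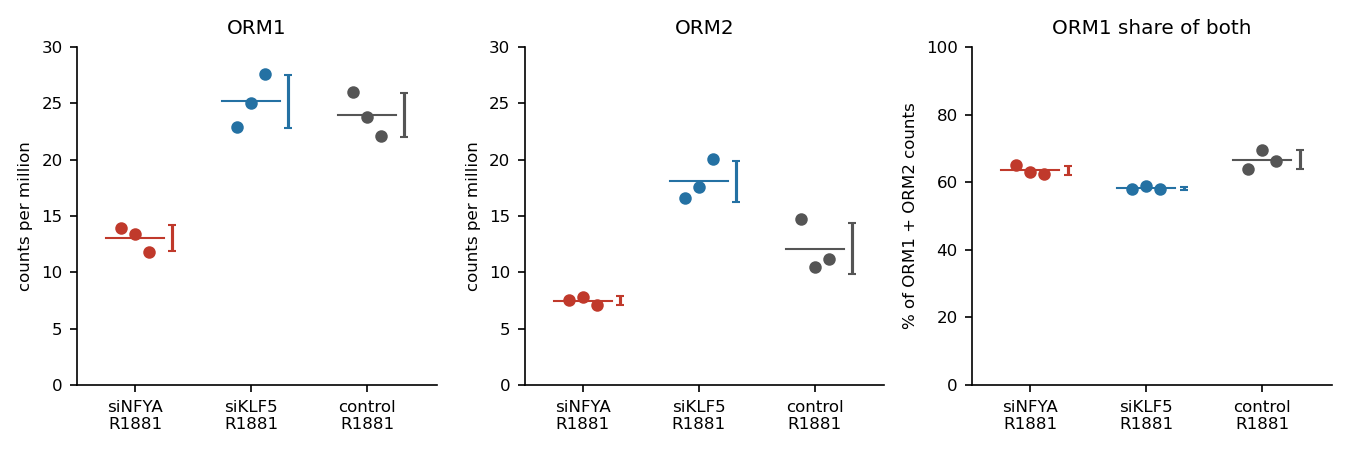
CPM of ORM1 and of ORM2 and the share of ORM1 in both (vertical axes) in the 9 R1881 libraries by siRNA; points are libraries, lines means, and bars ± SD (n = 3). Both copies are lowest with NFYA siRNA (11.8 to 14.0 CPM and 7.10 to 7.85 CPM), while the ORM1 share stays between 57.9% and 69.5% in every library.

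Most of the genes were carried by a single annotated transcript. With R1881, ORM1-201 took 100% of the ORM1 counts in every group. SNAI2-201 took 98.7% with NFYA siRNA, 100% with KLF5 siRNA and 99.2% with control siRNA, and SLC26A3-201 took 93.9%, 94.9% and 99.4% in the same groups. PGC-202, the transcript that begins at the start used for the PGC sequence above, took 90.5% with NFYA siRNA, 88.6% with KLF5 siRNA and 92.5% with control siRNA. By TPM, which divides by length, SLC26A3-201 held 84.9%, 85.2% and 96.0%, and PGC-202 84.6%, 81.7% and 82.5%, in the same order of groups.

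CCDC141 was the exception. CCDC141-201 (3795 bases, 13 exons), which begins inside the gene at position 178884951 of chromosome 2, held the largest share of the estimated counts, 44.5 ± 1.10% with NFYA siRNA, 44.1 ± 5.21% with KLF5 siRNA and 38.7 ± 2.20% with control siRNA (SD, n = 3 each). A transcript that is not in GENCODE v29 held 27.9 ± 3.83%, 31.1 ± 4.66% and 28.7 ± 3.02% in the same order of groups. By TPM that order turned: the transcript that is not in GENCODE v29 led with 37.3%, 40.03% and 39.2%, and CCDC141-201 held 35.3%, 33.7% and 31.3%. CCDC141-203 (9131 bases, 24 exons), which spans nearly the whole gene, held 8.10 ± 7.72% with NFYA siRNA and 7.80 ± 7.17% with KLF5 siRNA, against 21.7 ± 3.43% with control siRNA. One library of each knockdown gave it 0 counts. Its share ran from 19.3% to 25.6% with control siRNA and reached at most 15.4% with NFYA siRNA and 14.1% with KLF5 siRNA. CCDC141-204 (2029 bases) went the other way, with 7.88 ± 5.39%, 9.01 ± 3.94% and 1.15 ± 1.99%. These shares were not tested, and how often other transcripts differ in this way was not counted, so they are a description. The estimation divides reads among overlapping transcripts.

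**Figure D4:**
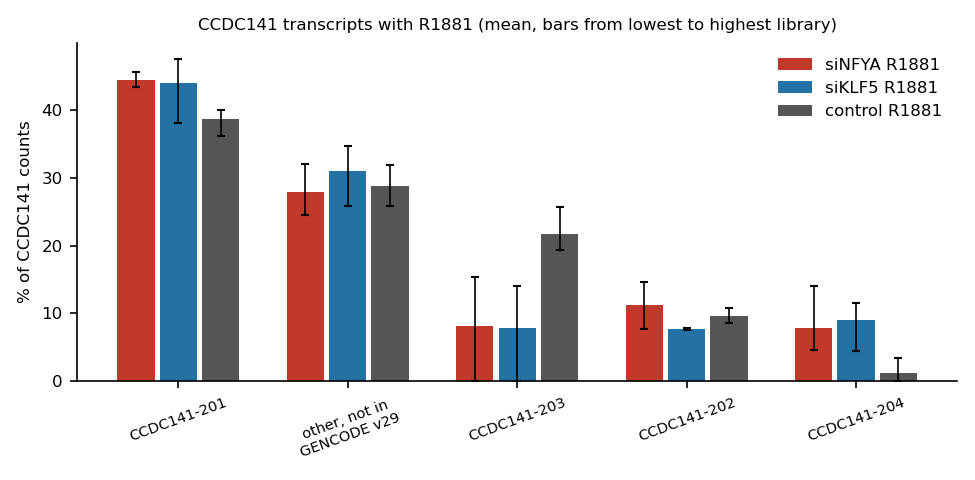
Share of CCDC141 estimated counts (vertical axis, percent) held by each transcript that reaches 5% in some group, in R1881 libraries by siRNA; bars are means of 3 libraries and lines run from the lowest to the highest library. CCDC141-201 leads in each group by estimated counts, though not by TPM, and CCDC141-203 averages 8.10% with NFYA siRNA and 7.80% with KLF5 siRNA, against 21.7% with control siRNA.

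The same switch was looked for among all genes. At most 3 counts over the 3 control vehicle libraries were held by 19536 gene rows, of which 5580 were protein-coding, and 2731 of the 19536 had any count in control R1881 libraries. Ranked by mean CPM in control R1881 libraries, 11 of these protein-coding genes stood at or above SLC26A3, the lowest of the 5. CCDC141, PGC and ORM1 were at the top with 33.9, 25.6 and 24.0 CPM, SNAI2 ranked 5 with 18.1 CPM and SLC26A3 ranked 11 with 5.70 CPM. The other 6 were TBX15 (20.7 CPM), a T-box developmental transcription factor, SLC2A3 (13.4), the glucose carrier GLUT3, ORM2 (12.1), SLC38A4 (12.1), an amino acid carrier, AKAP12 (11.1), a scaffold for protein kinase A, and TG (9.42), thyroglobulin. Just under SLC26A3 came the alcohol dehydrogenase ADH1C, at 5.44 CPM.

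These 6 genes passed upward with NFYA siRNA and with KLF5 siRNA (edgeR, largest adjusted p = 9.02e-11 for ORM2 with NFYA siRNA and 1.03e-10 for AKAP12 with KLF5 siRNA), beside 30.6% and 30.1% of all genes. They too were ranked by their R1881 level and reached the test through their R1881 libraries, so the number that passed is a description. Between NFYA and KLF5 siRNA with R1881, ORM2 was the only one of the 6 to pass. TBX15 averaged 18.9 ± 2.97 CPM with NFYA siRNA, 19.2 ± 3.28 CPM with KLF5 siRNA and 20.7 ± 1.27 CPM with control siRNA (SD, n = 3 each), and the adjusted p for NFYA against KLF5 siRNA was 0.969 (edgeR). SLC2A3 averaged 11.5 ± 1.81, 13.4 ± 0.639 and 13.4 ± 1.25 CPM in these groups (adjusted p = 0.614). Among the 11 genes, the pair that passed were thus the neighbouring copies ORM1 and ORM2.

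**Figure D5:**
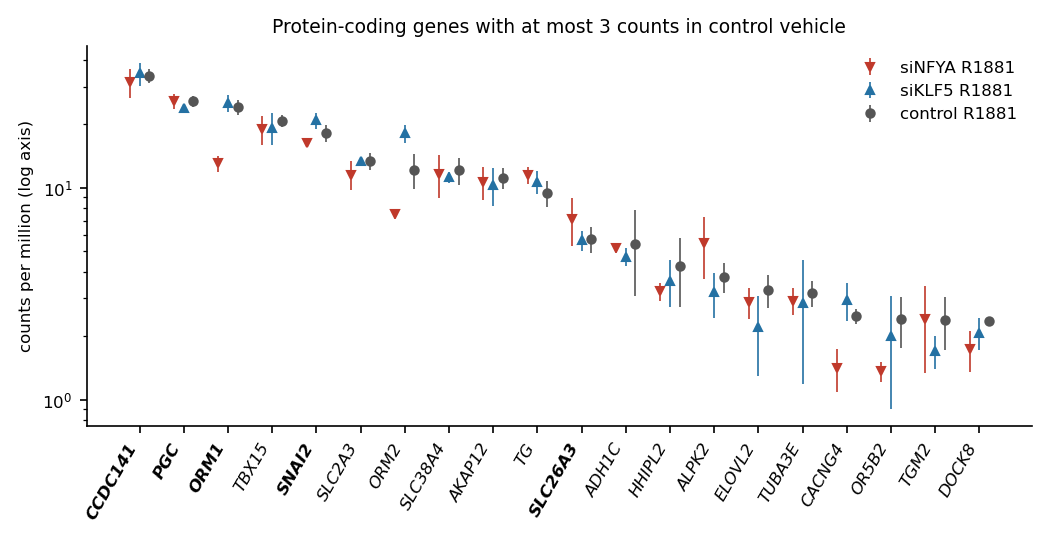
Mean CPM with R1881 (vertical log axis, bars ± SD, n = 3) for the 20 protein-coding genes that rank highest in control R1881 among those with at most 3 counts over the control vehicle libraries, with ORM1, PGC, CCDC141, SLC26A3 and SNAI2 in bold. The NFYA siRNA mean is the lowest of the 3 for 10 of the 20 genes, among them ORM1 (13.1 CPM), ORM2 (7.48 CPM) and CACNG4 (1.41 CPM). Only ORM1 and ORM2, which share reads, passed between NFYA and KLF5 siRNA, beside 3.82% of all genes. The order of the means was not tested and has no share over all genes beside it, so the count of 10 is a description.

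Beside the 5 genes, their neighbours on the chromosome were read. SLC26A3 lies at chr7:107765467-107803225 on the minus strand (GRCh38, GENCODE v29), and CBLL1, which encodes an E3 ubiquitin ligase known for binding E-cadherin, ends 3800 bases from its end on the plus strand. CBLL1 averaged 206 CPM with R1881 and 36.9 CPM with vehicle under NFYA siRNA, and 202 CPM with R1881 and 43.4 CPM with vehicle under KLF5 siRNA. Its rise passed in each arm, with log2 changes of 2.48 under NFYA siRNA (edgeR adjusted p = 3.46e-23), 2.22 under KLF5 siRNA (1.59e-21) and 2.22 under control siRNA (6.70e-23). On the other side DLD, a subunit of mitochondrial dehydrogenase complexes, rose by 0.19, 0.23 and 0.16 in the same arms, and under library totals these values turned to -0.03, -0.004 and -0.08, none of which passed. Within 500 kb of SLC26A3, 4 of the 6 genes tested passed upward in each arm (COG5, BCAP29, CBLL1 and DLD) and 1 downward, where 30.6%, 30.1% and 31.5% of all genes passed upward with NFYA, KLF5 and control siRNA.

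PGC (chr6:41736711-41754109, minus strand) has TFEB, a transcription factor for lysosomal genes, 452 bases beyond its end. The log2 change of TFEB with R1881 was 0.17 under NFYA siRNA (edgeR adjusted p = 0.431) and 0.28 under KLF5 siRNA (0.186), neither of which passed, and TFEB rose by 0.68 under control siRNA (0.000668). FRS3, on the other side, did not pass in any arm. Around PGC, 1 of 13 tested genes passed upward with NFYA siRNA, 2 with KLF5 siRNA and 3 with control siRNA, and 3, 3 and 2 passed downward, where 30.1%, 28.1% and 29.8% of all genes passed downward.

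CCDC141 (chr2:178829757-179050086, minus strand) overlaps the first bases of TTN, the titin gene, which lies on the same strand. TTN rose by 0.65 under NFYA siRNA (edgeR adjusted p = 5.04e-05), 0.80 under KLF5 siRNA (4.25e-06) and 0.70 under control siRNA (1.01e-05), from a level that was already present with vehicle (26.4 CPM with R1881 and 16.7 CPM with vehicle under NFYA siRNA). Other striated muscle markers were at or near 0: ACTC1, MYL2 and TNNI3 had no count in any R1881 group. Reads in the overlap of the 2 genes are divided by estimation. SESTD1, on the other side of CCDC141, fell by 0.53, 0.48 and 1.05 under NFYA, KLF5 and control siRNA. Within 500 kb of CCDC141, 3, 2 and 3 of 7 tested genes passed upward in these arms, and 2, 1 and 2 downward. ORM1 (chr9:114323056-114326475, plus strand) is followed by ORM2, and COL27A1 on its other side had too few counts to be tested. Within 500 kb of ORM1, 4 of 7 tested genes passed upward in each arm (ORM2, WHRN, ATP6V1G1 and TMEM268) and 2 downward. Among all genes, 30.6%, 30.1% and 31.5% passed upward under NFYA, KLF5 and control siRNA, and 30.1%, 28.1% and 29.8% downward. SNAI2 (chr8:48917604-48921740, minus strand) stood alone, since neither of the 2 protein-coding genes within 500 kb, EFCAB1 and PPDPFL, had enough counts to be tested.

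By the correlation of log2 CPM over the 17 libraries, the protein-coding genes most like ORM1 were SLC41A1, a magnesium carrier (r = 0.998), MAP9, a microtubule-associated protein, and CYP2U1, a cytochrome P450. The libraries share the split by R1881, which sets most of each correlation, and no test is attached. SLC41A1 averaged 520 CPM with NFYA siRNA, 781 CPM with KLF5 siRNA and 748 CPM with control siRNA in R1881 libraries. In the same order MAP9 averaged 205, 238 and 234 CPM, and CYP2U1 245, 337 and 320 CPM. These genes were picked for following ORM1 over the same libraries, so a lower mean with NFYA siRNA was favoured by the choice and is no support. Nearest to PGC were MTMR9, ABHD2 and C1orf21, and nearest to CCDC141 were PTPRM, a receptor tyrosine phosphatase, IGF1R, the IGF1 receptor, and FBXW2. PTPRM and IGF1R were also among the 3 nearest to SNAI2, with the fatty acid elongase ELOVL7. SHROOM3, ELOVL1 and MBOAT2 were nearest to SLC26A3.

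Of 13 relatives and partners of SNAI2, 7 had enough counts to be tested. Of 7 tested Snail-type repressors and partner factors other than SNAI2, none passed upward with R1881, and 4 passed downward with NFYA siRNA, 3 with KLF5 siRNA and 5 with control siRNA; the median log2 changes were -0.80, -0.58 and -1.39, beside -0.02, -0.01 and -0.01 over all genes. Among all genes, 30.1% passed downward with NFYA siRNA, 28.1% with KLF5 siRNA and 29.8% with control siRNA. In the same order 30.6%, 30.1% and 31.5% passed upward. SNAI1, the related repressor Snail, averaged 0.319 CPM with R1881 and 1.67 CPM with vehicle under NFYA siRNA (log2 change -2.29, edgeR adjusted p = 0.000569) and 0.190 CPM with R1881 and 1.61 CPM with vehicle under control siRNA (-2.95). Under KLF5 siRNA SNAI1 averaged 0.802 CPM with R1881 and 1.28 CPM with vehicle, and did not pass (-0.64, edgeR adjusted p = 0.291). TCF4, a helix-loop-helix partner, fell by 1.48, 1.45 and 1.83 under NFYA, KLF5 and control siRNA. Of 18 tested epithelial genes that include known Snail targets, 13 rose with R1881 under NFYA siRNA, 11 under KLF5 siRNA and 12 under control siRNA, and 3 fell in each arm; under library totals 10, 9 and 10 rose and 5, 5 and 4 fell. The luminal keratins KRT8 and KRT18 rose by 3.23 and 2.72 under NFYA siRNA, and the tight junction genes OCLN and CLDN4 fell by 1.33 and 0.54. CDH1, the E-cadherin gene and a known Slug target, changed by 0.10 under NFYA siRNA (edgeR adjusted p = 0.022), 0.05 under KLF5 siRNA (0.275, not passed) and 0.17 under control siRNA, and turned to -0.13 (0.00342, passed downward), -0.18 (0.000288, passed downward) and -0.07 (0.0869, not passed) under library totals.

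Of 8 tested mesenchymal genes, 2 rose and 5 fell with R1881 in each arm, with medians of -0.68, -0.69 and -0.45 under NFYA, KLF5 and control siRNA. In the same arms 30.6%, 30.1% and 31.5% of all genes passed upward, and 30.1%, 28.1% and 29.8% passed downward. COL3A1, a fibrillar collagen, fell by 3.85 under NFYA siRNA and 3.95 under KLF5 siRNA, and FN1, fibronectin, by 1.52 and 1.19. The genes that rose were ACTA2, smooth muscle actin (1.29 under NFYA siRNA and 0.99 under KLF5 siRNA), and LOX, a collagen cross-linking enzyme. LOX, like the 5 genes, was near 0 in control vehicle libraries (2 counts). With R1881 it averaged 1.51 ± 0.755 CPM with NFYA siRNA, 1.76 ± 1.57 CPM with KLF5 siRNA and 1.83 ± 0.635 CPM with control siRNA (SD, n = 3 each). These levels are low, and the SD with KLF5 siRNA is near the mean.

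The proteins that accompany ORM1, PGC and SLC26A3 in liver, stomach and colon were mostly not read. Of 28 acute-phase and plasma protein genes besides ORM1, 2 had enough counts to be tested. ORM2 rose in both knockdown arms, and SERPINA3, antichymotrypsin, had a log2 change of 1.31 with KLF5 siRNA (edgeR adjusted p = 0.040), 0.51 with NFYA siRNA (0.349) and 0.94 with control siRNA (0.114). The call with KLF5 siRNA was lost under library totals (1.08, adjusted p = 0.0837), without the filter on low counts (adjusted p = 0.0774) and with DESeq2 (adjusted p = 0.118). It was also lost on the log2(TPM + 0.5) scale (0.56, limma, adjusted p = 0.238). The 9 hepatocyte markers summed to between 0.893 and 2.81 CPM in every library, and APOA2 and APOC3 were at 0 in every group. The 9 gastric chief cell markers found in the tables, among them PGA3, PGA4, PGA5 and LIPF, were at 0 in all R1881 groups and summed to at most 0.514 CPM with vehicle. Colon surface markers summed to at most 0.601 CPM, and GUCA2A, GUCA2B, CLCA4 and CDX1 were at 0 in every group. Basal and mesenchymal markers summed to between 7.50 and 12.0 CPM with R1881 and between 10.4 and 20.01 CPM with vehicle, with KRT5 at 0 in every group.

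Of the other aspartic proteases, 2 were tested: CTSD, the lysosomal cathepsin D, rose by 0.54 under NFYA siRNA, 0.52 under KLF5 siRNA and 0.57 under control siRNA, and BACE1, the beta-secretase, fell by 0.36, 0.35 and 0.19. Of 15 tested anion carriers and their regulators besides SLC26A3, 7 rose and 4 fell under NFYA siRNA, 6 rose and 3 fell under KLF5 siRNA, and 8 rose and 3 fell under control siRNA. Under library totals 5 rose and 6 fell, 4 rose and 6 fell, and 5 rose and 7 fell. Beside these lists, 30.6%, 30.1% and 31.5% of all genes passed upward under NFYA, KLF5 and control siRNA with TMM scaling. Downward it was 30.1%, 28.1% and 29.8% of all genes. The kinase STK39, which regulates chloride cotransporters, rose by 2.98, 2.83 and 2.94, and SLC26A2, a sulfate carrier of the same family, by 1.49, 1.39 and 1.48. The sodium-proton exchanger SLC9A3, which works beside SLC26A3 in the colon, fell by 1.83, 1.17 and 2.10, and the carbonic anhydrase CA12 fell as well, with log2 changes of -1.516, -1.502 and -1.601. Of 10 tested binding partners and centrosome proteins listed for CCDC141, 5 rose in each arm and 3 fell under NFYA siRNA, 3 under KLF5 siRNA and 2 under control siRNA; under library totals 3, 3 and 4 rose and 5 fell in each arm. The myosin light chain MYL12A rose by 1.28 under NFYA siRNA and 1.12 under KLF5 siRNA, and the dynein regulator NDEL1 by 0.85 and 0.74, while the myosin heavy chain MYH10 fell by 0.91 and 0.94 and NDE1 by 0.63 and 0.68.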

How the data were processed

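RNA-seq of LNCaP cells was analysed from 4 deposited tables. Stranded libraries were made, per the labels' protocols. FastQC, Trimmomatic, kallisto and DESeq2 with GRCh38 are named, without versions, in the submitters' processing notes. The deposited values are estimated counts per gene by the authors, and tables of joined values that hold, per gene and transcript, an estimated count, a TPM value and an unnamed other number that was not used. Gene positions come from GENCODE v29 (34846 of 34912 gene rows matched). Grouping followed the labels; the sample with label number 7 was not analysed here. Some marker genes are not reported here.

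Estimated counts were rounded, filtered with filterByExpr (12922 genes left), scaled by TMM and tested with edgeR 4.0.16 (quasi-likelihood, R 4.3.3) in 1 fit of 17 libraries with 6 groups; p-values were adjusted by Benjamini-Hochberg over all genes, with a threshold of 0.05. The test was checked on simulated counts. CPM use the totals of the filtered libraries multiplied by their TMM factors, for every gene. Ratios from 0 to 3 vehicle counts use 95% exact counting intervals or a floor of 3 counts. These counting intervals cover counting error only. The 95% intervals of the NFYA over KLF5 siRNA ratios come from the standard errors of the edgeR fit, which include the spread between libraries. Transcript shares, promoters and neighbours within 500 kb were described without tests. Alternatives were DESeq2 1.42.0 (test and size factors), library totals, no filter, fewer libraries, each table alone, limma 3.58.1 on log2(TPM + 0.5) and ORM1 with ORM2. Settings for knockdown against control siRNA other than the scalings, those for genes other than the 5, and count ratios without 1 library were added after seeing the data.

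The members and lists were chosen with earlier results of these data known. Named besides them are the 5 highest genes of the same kind and those nearest the lowest member, the 3 most correlated genes per member, the nearest genes, ORM2, and up to 2 rises and 2 falls per list.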

Additional observations from a re-analysis of the deposited data

How the results depend on the processing

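The rises with R1881 in both knockdown arms passed under every alternative run. ORM1 with NFYA against KLF5 siRNA passed under the other scalings, without the filter, with the compared groups alone, summed with ORM2 and without any of the 6 libraries (log2 -1.0 to -0.87); on log2(TPM + 0.5) it did not (-0.97, adjusted p = 0.137), and the cause was not tested. DESeq2 gave ORM1 -0.94 with an unadjusted p of 2.13e-06 and no adjusted p, as for 4510 genes. The difference of the R1881 response turned its sign for ORM1 on TPM (-0.18) and with ORM2 added (-2.28) and for SLC26A3 with DESeq2 (-0.13); leaving out 1 library gave -0.94 to 1.90 for ORM1, -2.61 to 0.24 for PGC, -2.87 to 0.87 for CCDC141 and -0.77 to 0.57 for SNAI2, none of which passed. Library totals moved the median gene by -0.23 with NFYA or KLF5 siRNA and -0.24 with control siRNA for R1881 against vehicle, with 2434 higher and 6246 lower, 2338 and 5965, and 2476 and 6350 genes, in place of 3949 and 3891, 3894 and 3637, and 4069 and 3853; on TPM 2310, 1976 and 2369 were higher. For NFYA against KLF5 siRNA, 193 higher and 301 lower became 111 and 182 with DESeq2 and 26 and 62 on TPM, and 83 to 170 and 158 to 228 without 1 library. For the difference of responses, 46 higher and 40 lower became 110 and 114 without the filter, 28 and 20 with the compared groups, 9 and 3 on TPM, 22 lower with DESeq2, and 19 to 64 and 17 to 69 without 1 library. By TPM the transcript shares moved for CCDC141-201 (35.3%, 33.7% and 31.3% with NFYA, KLF5 and control siRNA), which lost its lead, and were lower for PGC-202 and SLC26A3-201. Among genes named beside the 5, calls for R1881 against vehicle lost on TPM (limma) were TTN in each arm (adjusted p = 0.176, 0.105 and 0.107), SESTD1 and NDE1 with NFYA and KLF5 siRNA (0.275 and 0.303, 0.125 and 0.136), ACTA2 with KLF5 and control siRNA (0.253 and 0.212), SERPINA3 with KLF5 siRNA (0.238), TCF4 and TFEB with control siRNA (0.131 and 0.146) and DLD and CDH1 where they had passed (all above 0.3). NFYA against KLF5 siRNA could not be fitted within 1 deposited table. No paired analysis was possible because the label numbers differ between all libraries.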
